A study of Drosophila melanogaster with 23 samples.

Results

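Long noncoding RNA (lncRNA) genes that reached a set mean count over the whole study are described here in fly midguts. A gene belonged to the set if its symbol began with lncRNA and its mean expected count over all 23 libraries was 100 or more. Of the 1896 lncRNA genes in the files, 934 had a read in at least 1 library, 121 had a mean of 10 or more, and 31 reached 100. The files hold 17714 genes in all, and 7523 of them reached a mean of 100. The genes were thus chosen by their mean count alone, and the levels below are a description. That mean can be reached through 1 model or a few groups alone, and a gene that reached it so had to differ between them. Differences in level between the models are therefore given with no test. The same limit holds for constructs against WT in a gene that reached 100 through 1 side, and is named there. The 3 genes just inside the limit were CR43270 (104.5 counts), CRG (107.5) and CR45668 (111.9). The 3 just outside were CR43242 (99.9), CR44816 (95.9) and CR45345 (92.8).

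Long noncoding RNAs are transcripts that are not known to be translated into protein. Some act in the nucleus, where they hold proteins at a site or in a granule, some are by-products of transcription near a coding gene, and some are the spliced remains of hosts whose introns release small nucleolar RNAs. In the fly the best described are the roX RNAs of dosage compensation and the Hsromega RNA, which gathers heterogeneous nuclear ribonucleoproteins in omega speckles. For most lncRNA genes, including nearly all of those described here, no role in the midgut is known to the level of certainty used here, and they are named by their CR number. Their nearest coding gene is therefore given as a landmark, not as a target.

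The midgut is renewed by intestinal stem cells (ISCs), which give rise to enteroblasts, enterocytes and enteroendocrine cells. In the ISC-restricted model, esg-Gal4 with UAS-GFP drove the transgenes in stem cells and their progenitors, and in the ubiquitous model arm-Gal4 drove them throughout the fly. All flies, controls included, also carried the temperature-sensitive repressor tub-Gal80ts. The paper's stock list gives the esg-Gal4 line with UAS-dCas9.VPR as well, which its list of crosses does not name. For the ubiquitous model that list of crosses gives UAS-GFP with arm-Gal4 too, which the stock list does not name. Expression of the transgenes was constant in the flies used for RNA. The transgenes were UAS-OKSM (human Oct4, Klf4, Sox2 and Myc), UAS-Sen (a senolytic peptide), both together (OKSM-Sen), or UAS-TdTomato, a fluorescent protein, in the control flies (WT). The paper's results name fly foxo as the model of the Sen peptide, whereas its methods give a part of the fly Fork Head protein. There were 3 libraries of OKSM, Sen, OKSM-Sen and WT each in the ISC model. In the ubiquitous model there were 3 of OKSM, 2 of Sen (replicates 2 and 3), 3 of OKSM-Sen and 3 of WT. RNA came from dissected adult midguts, although the labels of the ISC model give stem cells as the tissue, and the sources used here give no age of the flies. Separate cohorts are not stated for the replicates, and a p-value then covers only the spread among these libraries, which may be technical. In whole tissue, fewer cells of a type and less RNA per cell cannot be told apart.

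Total counts ran from 14626936 to 18974759 per library in the ISC model and from 33438269 to 46324866 in the ubiquitous model. The annotations of ISC Sen replicate 3 and ISC OKSM-Sen replicate 3 had been exchanged and were corrected by the submitters; results that depend on this pair are given with and without it. Ribosomal RNA took 4.498 to 7.64% of the counts in the 9 construct libraries of the ISC model and 3.82 to 4.23% in its 3 WT libraries, without overlap, and these genes were removed before testing. Summed enterocyte markers lay at 15311 to 40932 CPM (library-scaled counts with TMM factors) in the ISC construct libraries and at 38654 to 51724 CPM in ISC WT. In the ubiquitous model they lay at 44602 to 81308 CPM in constructs and 47349 to 52064 CPM in WT. Of the 8 enterocyte markers tested in the ISC model, edgeR called 1 higher and 1 lower with OKSM. With Sen it called 2 higher and 1 lower, and with OKSM-Sen 2 higher and 2 lower. Their median log2 fold changes were -0.02, 0.12 and 0.02 for OKSM, Sen and OKSM-Sen. The lower sums in ISC constructs were thus not a fall of the list as a whole. Malpighian tubule markers summed to 57.6 to 809 CPM in ISC constructs (median 449) and 156 to 216 CPM in ISC WT (median 189). Visceral muscle markers summed to 1221 to 3027 CPM in ISC constructs and 1171 to 1342 CPM in ISC WT. Markers of testis and male flies summed to 0.307 CPM at most, with 7 of 15 at 0 in every library. Markers of ovary and egg summed to 180 to 1916 CPM in the ISC model and 73.3 to 488 CPM in the ubiquitous model. The highest sum was that of ISC OKSM-Sen replicate 3, a library of the exchanged pair. Of 7 ISC and enteroblast markers, 5 were measured, whereas esg and Dl were not analysed here. The summed level of these 5 was 68.5 to 114.9 CPM in the 9 construct libraries of the ISC model and 40.3 to 54.4 CPM in its 3 WT libraries. Summed hemocyte markers lay at 9.11 to 28.2 CPM in those construct libraries and at 24.8 to 31.7 CPM in WT. The part of these shifts in the lncRNA results was not tested. One library stood apart for a lncRNA outside the set. roX1 had 385 counts in ubiquitous OKSM replicate 1 and at most 18 in any other library, with a mean of 24.3, and roX2 averaged 0.348 counts.

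Of the 31 genes, 11 lie between coding genes, 10 overlap exons of a coding gene on the same strand, 5 lie antisense in an intron, 3 overlap exons antisense and 2 lie in an intron on the same strand (BDGP6.54 annotation). By chromosome arm, 11 are on X, 7 on 3R, 5 on 3L, 5 on 2L and 3 on 2R. The sources used here do not say whether the counting used the strand, so the 20 genes that overlap a coding gene share an uncertainty about which reads are theirs. At least 1 read was found in every library for 29 genes, all but CR34335 and CR45197. In each of the 8 groups the mean count was 100 or more for 15 of the 31. All 31 passed the limit of 10 counts for testing in both models. A mean of 100 was reached in both models by 20 genes, in the ubiquitous model alone by 9, and in the ISC model alone by 2, CR44986 and CR45668.

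Levels were compared between genes as TPM, which divides by transcript length. CR32368, a single-exon RNA on chromosome 3L from 7915437 to 7915846, had the highest mean, 926 TPM, with a range of 339 to 2493 TPM over the libraries. CR34335, which lies in an intron of DIP-alpha on X from 3545750 to 3546110, averaged 195 TPM and ranged from 0 to 322 TPM. CR42862, which shares exons with CG33229 on 3L, averaged 170 TPM (108 to 231), and Hsromega averaged 123 TPM (62.7 to 227). CR32368 was above CR34335, CR42862 and Hsromega in every library, and the ranges of those genes overlapped over the libraries. The gap was wide in ubiquitous WT, where CR32368 had 1917 to 2453 TPM, and small in ISC OKSM, where it had 339 to 421 TPM. In ISC OKSM replicates 2 and 3 CR44138 was above it, with 385 and 424 TPM against 339 and 421 TPM. CR44138 (121 TPM), CR45010 (86.3), CR42491 (52.7), CR45018 (36.0), CR43241 (20.9) and CR42861 (15.2) followed in the order of mean TPM. At the low end were CR43459 with 1.04 TPM and CR43270 with 1.07 TPM.

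**Figure D1:**
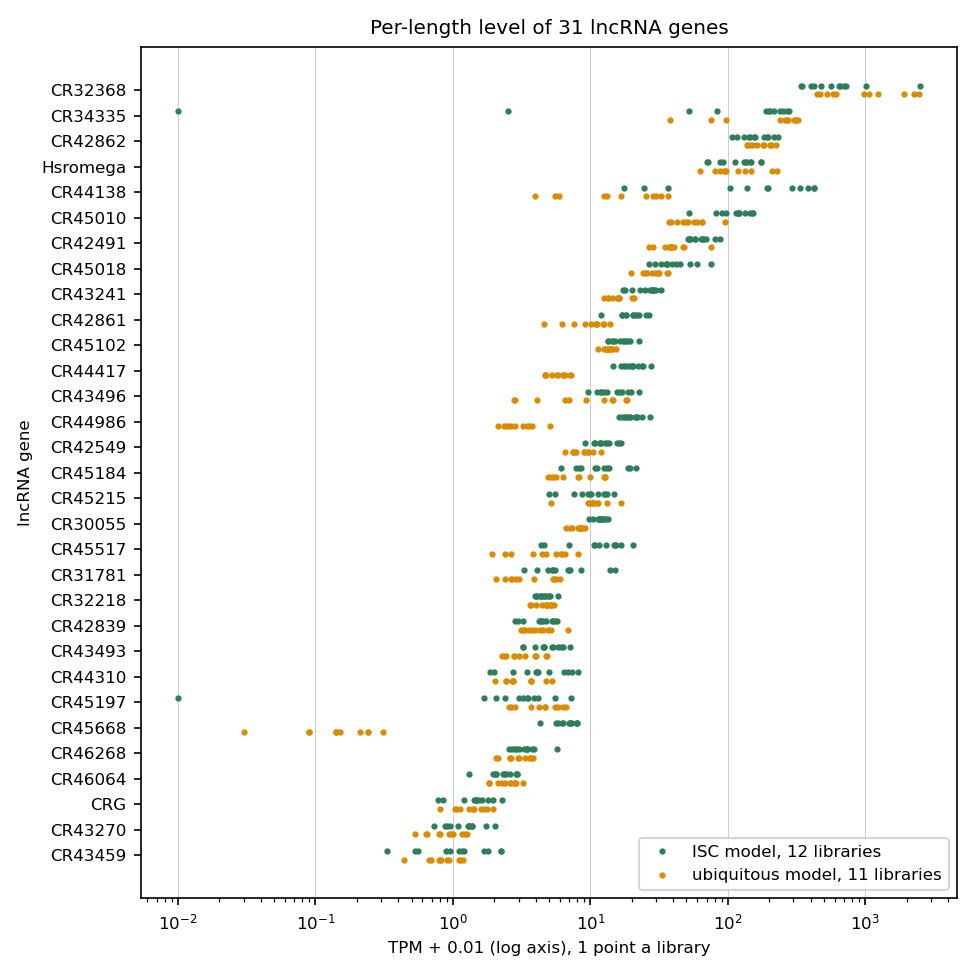
Level of the 31 lncRNA genes as deposited TPM on a log axis, with the ISC libraries above the ubiquitous libraries in each row. CR32368 averaged 926 TPM, and most of the others lay below 100 TPM.

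In read counts the order was different, because length enters. CR42862 alone took 41.2 to 72.0% of the counts of the 31 genes, depending on the library. All 31 together held 0.123 to 0.227% of the counts of a library. Under the ubiquitous driver their share was 0.127 to 0.179% in the 8 construct libraries and 0.215 to 0.227% in WT, so that the groups did not overlap. CR42862, which held most of these counts, had 922 to 1331 CPM in the ubiquitous constructs and 1365 to 1560 CPM in ubiquitous WT, and was not called in any construct of that model (log2 fold changes of -0.39, -0.46 and -0.31 for OKSM, Sen and OKSM-Sen). CR32368 was lower too, with 90.0 to 273 CPM in the ubiquitous constructs and 439 to 540 CPM in ubiquitous WT, and was called for OKSM and OKSM-Sen. The part of each gene in the lower share was not tested. Under the ISC driver the shares overlapped, with 0.123 to 0.193% in constructs and 0.147 to 0.202% in WT.

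Across the 23 libraries the SD of log2 CPM had a median of 0.47 over the 31 genes and of 0.24 over the 7521 tested genes with a mean of 100 or more. The sets were not matched on count, with a median of 185 counts for the lncRNA genes and 788 for the larger set, so the SDs are given as a description. CR45668 (SD 2.63), CR44138 (2.00) and CR34335 (1.93) varied most, and CR45668 had entered the set through its ISC libraries alone. CR45102 (0.13), which lies 185 bases from Mnt, the gene of a Myc antagonist, varied least, followed by CR32218 (0.20) in an intron of Mi-2 and Su(Tpl) and CR30055 (0.23) in an intron of the corepressor gene Sin3A. CR45102 stayed between 18.8 and 29.6 CPM in all libraries.

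**Figure D2:**
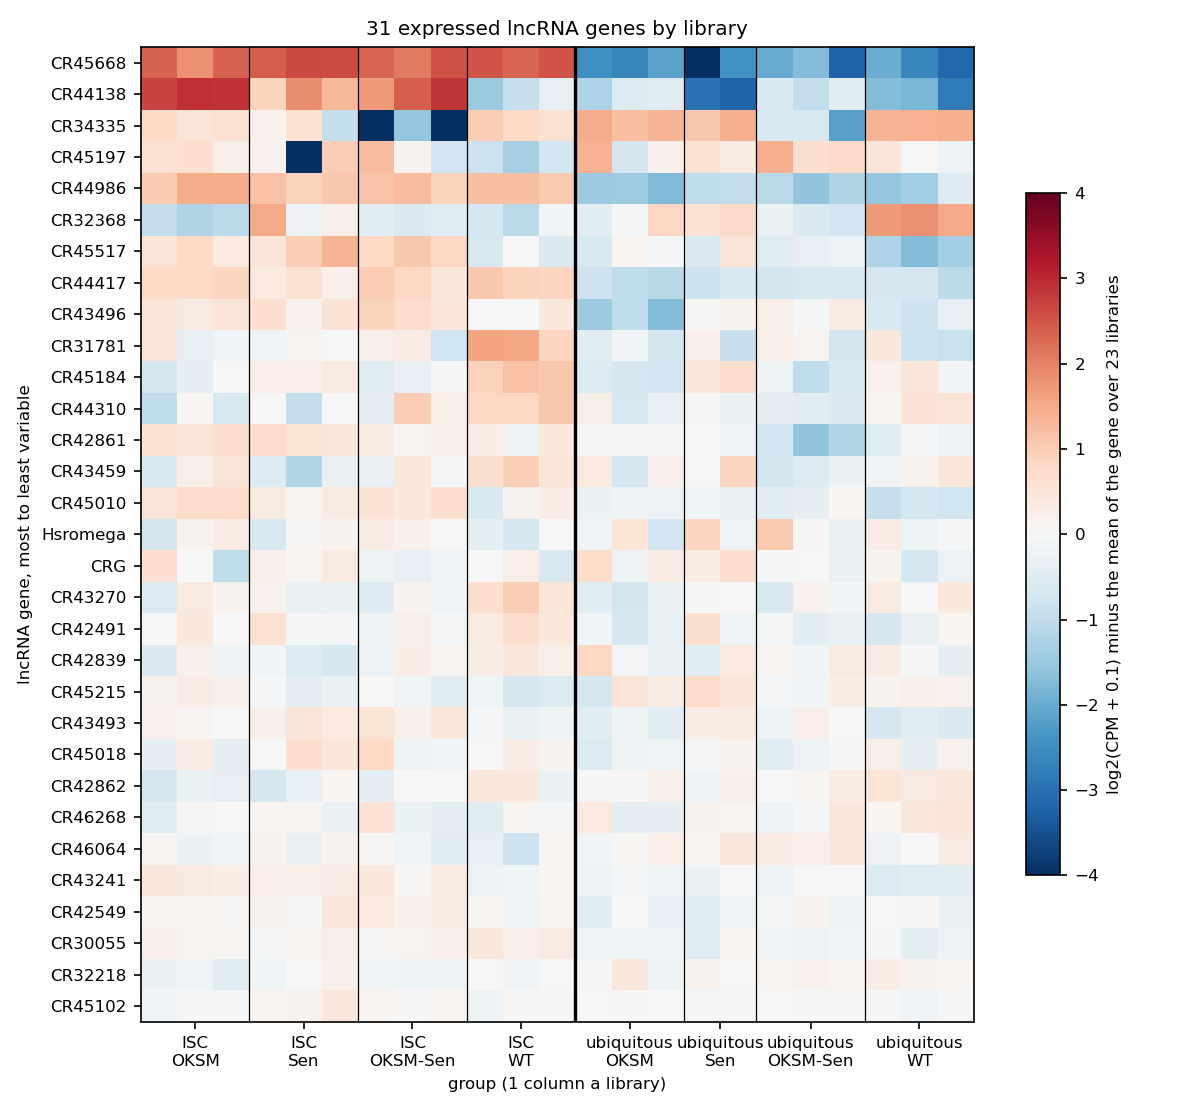
Log2 CPM of the 31 lncRNA genes relative to each gene's mean, by library, with the ISC groups on the left and the ubiquitous groups on the right. CR45668, CR44986 and CR44417 were higher in all 12 ISC libraries than in all 11 ubiquitous libraries.

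WT midguts of the models differed in several of these genes. In ISC WT, 15 of the 31 genes were higher in every library than in ubiquitous WT, 5 were lower, and 11 overlapped, where 15.8% of the tested genes were higher and 13% lower. CR45668 and CR44986, which reached a mean of 100 in the ISC model only, had to be higher there by the way the set was chosen, and nothing is read from their differences or from these counts. CR45668, antisense to CG16721, stood at 12.6 ± 0.859 CPM in ISC WT and 0.307 ± 0.161 CPM in ubiquitous WT (SD, n = 3 each), a ratio of 41.0. CR44986, antisense to the glycerol-3-phosphate dehydrogenase gene Gpdh1, stood at 10.1 ± 0.585 CPM in ISC WT and 2.08 ± 0.90 CPM in ubiquitous WT. CR44417, in an intron of Mapmodulin, stood at 15.4 ± 1.23 CPM in ISC WT and 4.58 ± 0.677 CPM in ubiquitous WT. For these 3 genes, every ISC library, construct or WT, was above every ubiquitous one. Their host genes were far closer: CG16721 averaged 89.2 ± 5.64 CPM in ISC WT and 103 ± 17.8 CPM in ubiquitous WT, and Gpdh1 averaged 520 ± 47.8 and 560 ± 134 CPM in ISC and ubiquitous WT. CR32368 went the other way, at 103 ± 34.8 CPM in ISC WT and 493 ± 50.8 CPM in ubiquitous WT, or 4.80 times higher in ubiquitous WT. No test was made between the models' WT libraries, because driver, depth and library set change together and cannot be told apart.

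In the ISC model the question was how OKSM, Sen and their combination changed these genes when driven in stem cells and progenitors. Over the 4 conditions 16 of the 31 lncRNA genes changed at an FDR of 10% in edgeR's quasi-likelihood test (51.6%), against 35.7% of all tested genes and 39.2% of those with a mean of 100 or more. Without the pair of libraries whose annotation was exchanged, 8 changed, against 22.2% of all tested genes. Without WT replicate 1 the count was 9, without WT replicate 2 it was 8, and without OKSM replicate 3 it was 10. By position, 8 of the 11 genes between coding genes and 8 of the 20 that overlap one were called.

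CR44138 showed the strongest rise. This single-exon RNA lies on 3R from 13376903 to 13377395, antisense in an intron of CG9813. It had 97.6, 113 and 111 CPM in OKSM, 27.4, 54.4 and 37.2 CPM in Sen, and 48.3, 79.9 and 108 CPM in OKSM-Sen, against 5.20, 7.73 and 11.8 CPM in WT. Every construct library was above every WT library, and the 3 Sen libraries were below all OKSM libraries. The means were 13.0-fold higher in OKSM, 4.81-fold in Sen and 9.56-fold in OKSM-Sen than in WT. The log2 fold change over WT was 3.71 for OKSM (SE 0.39, edgeR adjusted p = 5.58e-04). It was 2.26 for Sen (SE 0.37, edgeR adjusted p = 0.00231) and 3.26 for OKSM-Sen (SE 0.38, edgeR adjusted p = 8.50e-04). CG9813, on the other strand, did not rise with it. Its log2 fold changes were -0.01 for OKSM and -0.16 for OKSM-Sen, neither called, and -0.59 for Sen, which was called.

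CR45184 fell with every construct. It spans 826720 to 830190 on 3L, shares exons with Sf3b3, which encodes a subunit of the U2 small nuclear ribonucleoprotein, and its span holds 5 annotated small nucleolar RNA genes that guide methylation of ribosomal RNA. None of these 5 had a read in any library, and genes of this class were removed before testing. CR45184 had 16.1, 20.7 and 26.0 CPM in OKSM, 31.6, 31.9 and 33.8 CPM in Sen and 18.8, 20.8 and 25.5 CPM in OKSM-Sen, against 49.6, 59.3 and 56.3 CPM in WT. No construct library reached the lowest WT library, and Sen lay between WT and the others. On the log2 scale the fall was -1.38 for OKSM (SE 0.16, edgeR adjusted p = 5.58e-04), -0.77 for Sen (adjusted p = 0.00492) and -1.33 for OKSM-Sen (adjusted p = 6.27e-04). Sf3b3 fell as well, by 0.63, 0.49 and 0.72 on the log2 scale for OKSM, Sen and OKSM-Sen, all called, and the models of the genes share exons, so that reads may be divided between them. Genes for the protein part of small nucleolar ribonucleoproteins, such as Fib and Nop56, were lower in OKSM for 6 of 7 tested, in Sen for 3 and in OKSM-Sen for 7, where 15%, 18.3% and 13.3% of all tested genes were lower. Their median log2 fold changes were -0.49, -0.28 and -0.55, beside 0.01, -0.02 and 0.02 for all genes. CR42491 holds 1 small nucleolar RNA gene and shares exons with the ribosomal protein gene RpL22. It was not called, with log2 fold changes of -0.35, -0.32 and -0.49, while RpL22 fell by 0.97, 0.92 and 0.92 on the log2 scale.

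CR45517, on X 266 bases from CG16756, rose with every construct. It had 6.62, 8.01 and 6.00 CPM in OKSM, 6.61, 9.20 and 11.8 CPM in Sen and 7.99, 9.71 and 8.15 CPM in OKSM-Sen, against 2.87, 4.61 and 3.00 CPM in WT. The construct libraries were all above the WT libraries. Fold changes on the log2 scale were 0.99 for OKSM (SE 0.24, edgeR adjusted p = 0.0142), 1.39 for Sen (adjusted p = 0.00204) and 1.31 for OKSM-Sen (adjusted p = 0.00402).

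CR31781 fell with every construct. This spliced RNA extends over 2L from 16869346 to 16878300, next to CG32832, which had almost no reads. It had 17.8, 10.1 and 11.5 CPM in OKSM, 11.2, 13.5 and 12.3 CPM in Sen and 14.8, 15.8 and 7.22 CPM in OKSM-Sen, against 37.4, 36.6 and 23.1 CPM in WT. All construct libraries were below the lowest WT library. These gave log2 fold changes of -1.29 for OKSM (SE 0.31, edgeR adjusted p = 0.0164), -1.40 for Sen (adjusted p = 0.00896) and -1.35 for OKSM-Sen (adjusted p = 0.0139).

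The calls of CR44138, CR45184, CR45517 and CR31781 against ISC WT held in every alternative that was run, including without the exchanged pair and without each library in turn. The rise of CR45517 was favored by the choice of genes in each of these alternatives. CR43241 and CR43270 were also called for all 3 constructs, each in 1 direction, so that 6 of the 31 genes were, beside 18.6% of all tested genes. The constructs share the WT libraries, so these calls are not independent of each other. CR43241, which shares exons with CG42748, had 13.5 to 15.02 CPM in OKSM, 12.8 to 13.7 CPM in Sen and 11.3 to 14.7 CPM in OKSM-Sen, against 9.32 to 11.6 CPM in WT, and only OKSM-Sen overlapped WT. CR43270, 428 bases from Jhbp6, had 2.82 to 5.30 CPM in OKSM, 3.38 to 4.70 CPM in Sen and 2.88 to 4.61 CPM in OKSM-Sen, against 5.88 to 8.26 CPM in WT. CR43270 reached the mean count of the set only through the WT libraries of the study. The choice of genes thus favored its fall with every construct, and its place among the 6 genes carries that limit. Without WT replicate 2, CR43270 was not called for any construct and CR43241 was called for OKSM only. Without the exchanged pair the result was the same, with OKSM alone called for CR43241 and no construct for CR43270. Over all alternatives, the calls of CR43270 for OKSM, Sen and OKSM-Sen were lost in 6, 3 and 3 of 18, and those of CR43241 in 0, 5 and 6.

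**Figure D3:**
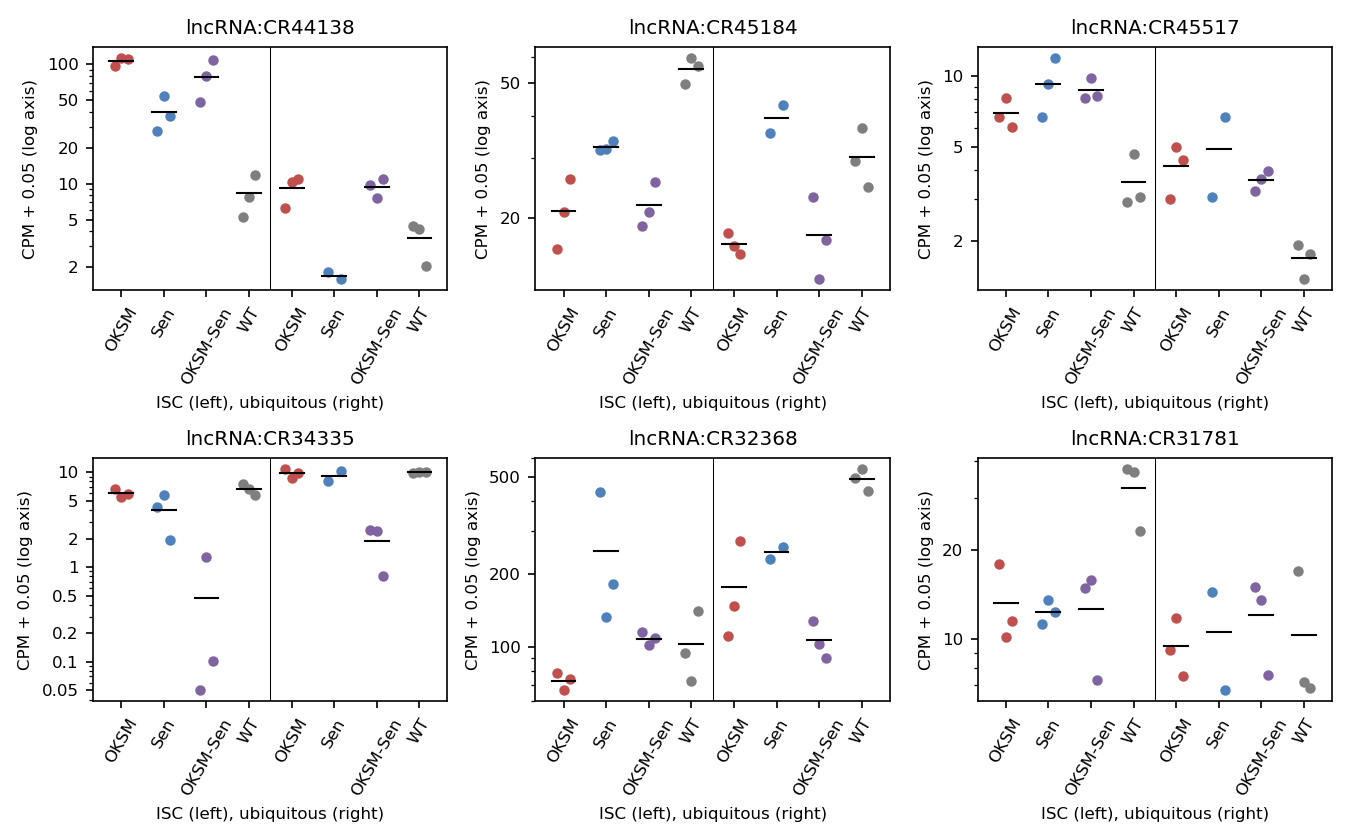
CPM of 6 lncRNA genes by library on a log axis (0.05 added so that 0 can be drawn), with bars at the group means, for OKSM, Sen, OKSM-Sen and WT of the ISC and then of the ubiquitous model. CR44138 had 97.6 to 113 CPM in ISC OKSM and 5.20 to 11.8 CPM in ISC WT, and CR34335 was lowest in OKSM-Sen of both models.

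With OKSM in the ISC model 10 genes were called, 5 higher and 5 lower (32.3% of all tested genes, 17.3% higher and 15% lower). The median log2 fold change was -0.0042 over the 31 genes and 0.015 over all genes. Besides those above, CR45215, which shares exons with the copper transporter gene Ctr1B, had 6.75, 7.75 and 7.10 CPM in OKSM, against 5.44, 3.83 and 4.21 CPM in WT (log2 fold change 0.69, edgeR adjusted p = 0.0183). CR45010, antisense to exons of the fucosyltransferase gene FucTC, had 11.02, 12.7 and 12.8 CPM in OKSM, against 5.02, 8.38 and 9.35 CPM in WT (0.69, adjusted p = 0.0273). Neither overlapped its WT range. CR44310, which lies 1478 bases from the UDP-glycosyltransferase gene Ugt36A1, had 2.36, 5.10 and 3.09 CPM in OKSM, against 8.66, 8.68 and 10.3 CPM in WT (-1.37, adjusted p = 0.0262). CR42862 had 669, 885 and 843 CPM in OKSM, against 1417, 1422 and 888 CPM in WT (-0.62, adjusted p = 0.0616). Its WT replicate 3 lay close to the OKSM libraries, and the call was lost without WT replicate 1 or 2 or OKSM replicate 1 or 3.

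With Sen in the ISC model 14 genes were called, 6 higher and 8 lower (36.5% of all tested genes, 18.2% higher and 18.3% lower). The median log2 fold change was 0.17 over the 31 genes and -0.02 over all genes. CR32368 had 434, 133 and 181 CPM in Sen, against 94.3, 72.7 and 141 CPM in WT (1.28, SE 0.40, edgeR adjusted p = 0.039). Replicate 1 was far above the others, Sen replicate 2 lay below the highest WT library, and the call was lost without WT replicate 1 or 2 and in the fit of Sen and WT libraries alone. Without Sen replicate 1 the value was 0.60 (adjusted p = 0.0995), and over all alternatives it ran from 0.60 to 1.59. CR43459, 64 bases from the gene of the translational repressor Fmr1, had 4.10, 2.61 and 4.87 CPM in Sen, against 9.32, 11.8 and 8.42 CPM in WT (-1.36, SE 0.32, adjusted p = 0.0103). CR44310 had 4.86, 2.44 and 4.87 CPM in Sen (-1.19, adjusted p = 0.0379), all below WT, and was not called without Sen replicate 2.

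CR42839 lies 236 bases from serpent (srp), which encodes a GATA factor of hemocytes and other tissues. It had 12.5, 9.26 and 8.19 CPM in Sen, against 16.4, 18.6 and 15.7 CPM in WT, with no overlap (-0.76, SE 0.21, edgeR adjusted p = 0.0224), and was not called without the exchanged pair. srp fell by 1.09 on the log2 scale in Sen, and of the 4 hemocyte markers tested, srp among them, all 4 fell in Sen and in OKSM-Sen and 1 fell in OKSM, where 18.3%, 13.3% and 15% of all tested genes fell. The part of hemocyte RNA in the value of CR42839 was not tested. CR43493, antisense in an intron of the inositol pyrophosphate kinase gene l(1)G0196, had 10.6, 12.8 and 11.8 CPM in Sen, against 8.60, 7.49 and 7.73 CPM in WT (0.56, adjusted p = 0.00761). Smaller shifts were called for CR44417 (-0.52, adjusted p = 0.0269), CR45102 (0.31, adjusted p = 0.0377) and CR30055 (-0.25, adjusted p = 0.0904). The call of CR45102 was lost without the exchanged pair, without Sen replicate 3 or without WT replicate 1, and that of CR30055 was lost in 13 of 18 alternatives.

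With OKSM-Sen in the ISC model 10 genes were called, 6 higher and 4 lower (29% of all tested genes, 15.7% higher and 13.3% lower). The median log2 fold change was 0.02 over the 31 genes and 0.02 over all genes. CR43493 had 13.3, 10.6 and 12.2 CPM in OKSM-Sen, above its WT range given above (0.61, edgeR adjusted p = 0.00681). CR43496, antisense in an intron of sov, had 9.93, 8.98 and 7.58 CPM in OKSM-Sen, against 5.32, 5.33 and 7.21 CPM in WT (0.58, adjusted p = 0.0398). It was not called without OKSM-Sen replicate 1 or WT replicate 1 or 2. CR45010 had 11.5, 10.3 and 12.2 CPM in OKSM-Sen, above WT (0.59, adjusted p = 0.0532), and was not called without the exchanged pair, OKSM-Sen replicate 1 or 3 or WT replicate 1.

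CR34335 was lowest in OKSM-Sen of both models. Under the ISC driver it had 0, 1.21 and 0.0512 CPM in OKSM-Sen (0, 20 and 1 counts), against 7.53, 6.65 and 5.71 CPM in WT (126, 111 and 99 counts). OKSM had 6.56, 5.43 and 5.82 CPM, and Sen had 4.21, 5.71 and 1.90 CPM. OKSM-Sen was below every other library of the model, whereas OKSM overlapped WT and Sen replicate 2 lay at the level of the lowest WT library. The log2 fold change over WT was -4.01 for OKSM-Sen (SE 0.87, edgeR adjusted p = 0.0112) and -3.46 (adjusted p = 0.0434) without the exchanged pair. Replicate 2 alone had more than 1 count, and without it the value was -7.62 (edgeR adjusted p = 4.72e-04), a fit on counts of 0 and 1 whose size depends on the prior count. Ubiquitous expression gave 2.43, 2.37 and 0.757 CPM in OKSM-Sen, against 9.82, 9.97 and 10.1 CPM in WT. OKSM had 10.8, 8.66 and 9.77 CPM, and Sen had 8.07 and 10.3 CPM, both at the level of WT. OKSM-Sen gave a log2 fold change of -2.44 (SE 0.35, edgeR adjusted p = 0.0155). For OKSM and Sen alone it lay between -0.05 and -0.75 over both models and was not called. The OKSM-Sen calls held in every alternative of both models. All OKSM-Sen libraries held fewer than 100 counts (78, 79 and 30 in the ubiquitous model), so CR34335 reached the mean of 100 through the other groups. The choice of genes thus favored a fall in OKSM-Sen in each of these alternatives. DIP-alpha, the gene of a neuronal surface protein whose intron holds CR34335, averaged below 1 CPM in every group and did not fall in ubiquitous OKSM-Sen (0.64, adjusted p = 0.76).

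**Figure D4:**
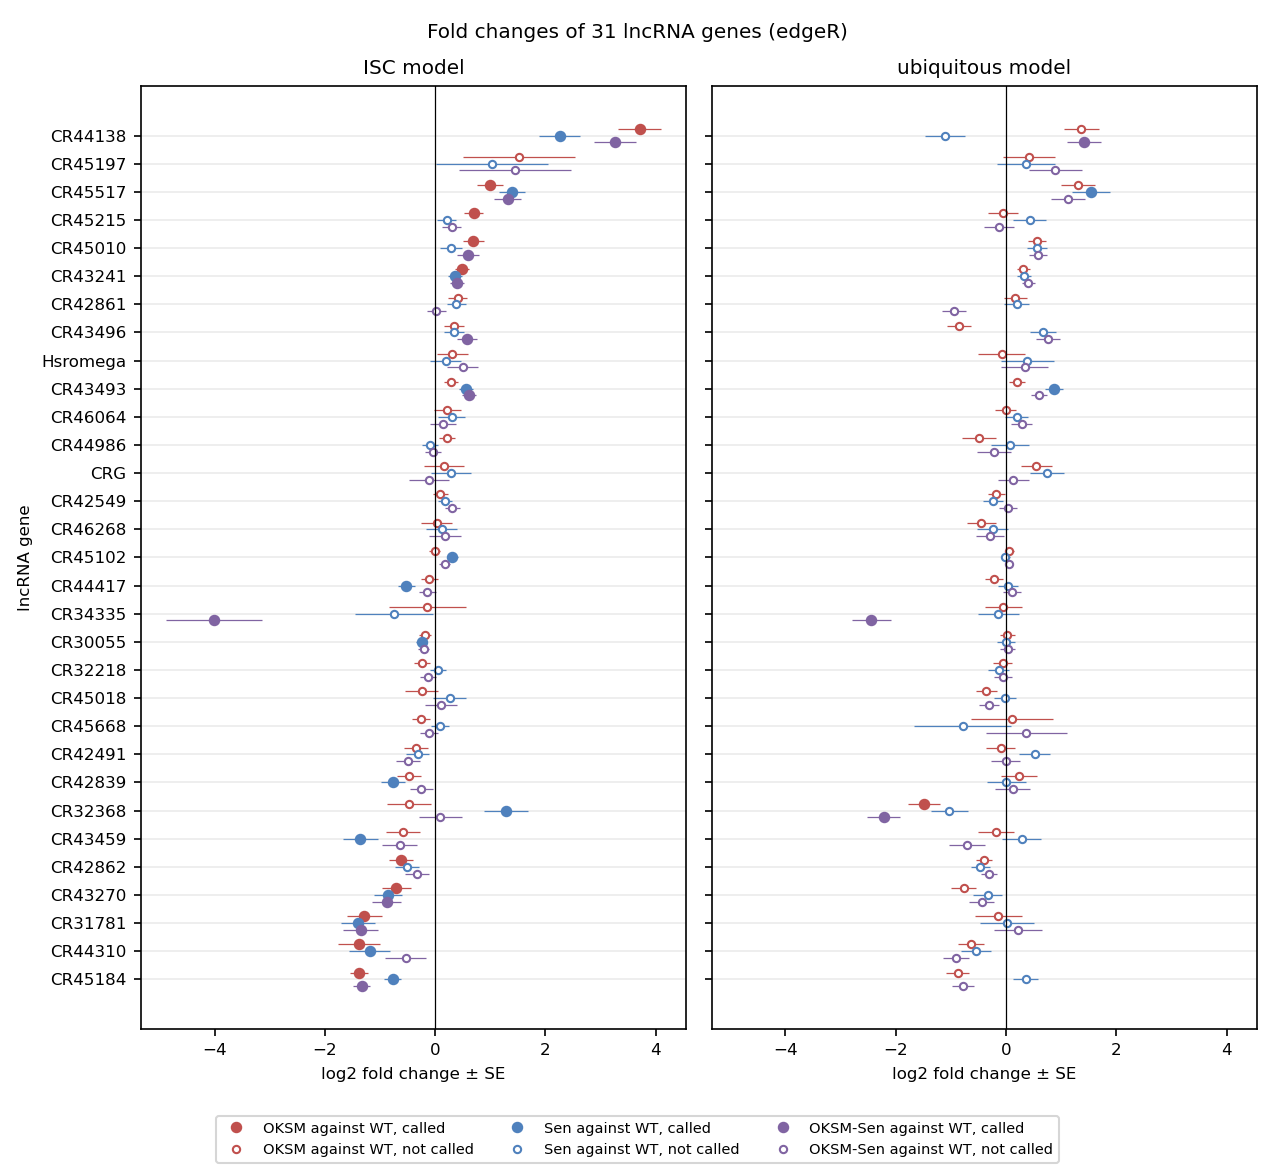
Log2 fold change of each construct over WT, with SE, for the 31 lncRNA genes in the ISC (left) and ubiquitous (right) models. Filled points passed an FDR of 10% in edgeR, and CR44138 reached 3.71 in ISC OKSM while CR34335 fell to -4.01 in ISC OKSM-Sen and -2.44 in ubiquitous OKSM-Sen.

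In the ubiquitous model the same constructs were driven throughout the fly, and fewer genes of any kind changed. Over the 4 conditions 7 of the 31 lncRNA genes were called (22.6%), against 2.61% of all tested genes and 2.39% of those with a mean of 100 or more. They were CR32368, CR44138, CR43496, CR34335, CR45184, CR43493 and CR42861. Without OKSM-Sen replicate 3, and likewise without Sen replicate 3, the count was 4. Of these 7, 5 were also called over the 4 conditions of the ISC model, CR32368, CR34335, CR43493, CR44138 and CR45184, which is 71.4% of the calls in the ubiquitous and 31.3% of the calls in the ISC model. Over all genes tested in both models, 67.4% of the ubiquitous calls were also ISC calls, and 4.76% of the ISC calls were also ubiquitous calls.

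CR32368 fell in the ubiquitous model. It had 112, 148 and 273 CPM in OKSM, 231 and 259 CPM in Sen and 128, 103 and 90.0 CPM in OKSM-Sen, against 498, 540 and 439 CPM in WT. Every construct library was below every WT library, and OKSM replicate 3 stood above the other OKSM libraries. The log2 fold change was -2.21 for OKSM-Sen (SE 0.30, edgeR adjusted p = 0.0116), and this call held in every alternative. For OKSM it was -1.48 (SE 0.29, edgeR adjusted p = 0.0746), which was lost without any 1 of 9 libraries, among them each WT replicate and each OKSM-Sen replicate, and for Sen it was -1.03 (edgeR adjusted p = 0.201), not called. Tmem43, which encodes a nuclear envelope protein and lies 317 bases away, had log2 fold changes of -0.52 for OKSM (adjusted p = 0.172) and -0.61 for OKSM-Sen (adjusted p = 0.108). It averaged 19.0 ± 0.60 CPM in ubiquitous OKSM and 17.7 ± 0.542 CPM in ubiquitous OKSM-Sen, against 26.9 ± 5.64 CPM in ubiquitous WT (SD, n = 3).

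CR44138 in the ubiquitous model had 6.26, 10.2 and 10.8 CPM in OKSM, 1.77 and 1.53 CPM in Sen and 9.69, 7.50 and 10.9 CPM in OKSM-Sen, against 4.36, 4.11 and 2.00 CPM in WT. OKSM and OKSM-Sen were above WT in every library, and both Sen libraries were below it. The log2 fold change was 1.42 for OKSM-Sen (SE 0.31, edgeR adjusted p = 0.0993), which was called. It was 1.37 for OKSM (adjusted p = 0.119) and -1.10 for Sen (adjusted p = 0.21), not called. The OKSM-Sen call was lost in 13 of 16 alternatives, with an adjusted p of up to 0.319.

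CR45184 had 17.9, 16.5 and 15.6 CPM in OKSM, 35.6 and 43.1 CPM in Sen and 22.9, 13.1 and 17.1 CPM in OKSM-Sen, against 29.4, 36.9 and 24.6 CPM in WT. OKSM and OKSM-Sen lay below WT, and Sen overlapped it. It was called over the 4 conditions (edgeR adjusted p = 0.0411) but for no construct against WT, with log2 fold changes of -0.88 for OKSM (adjusted p = 0.124) and -0.78 for OKSM-Sen (adjusted p = 0.192). None of the 7 proteins of small nucleolar ribonucleoproteins was called in this model.

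CR43493 rose with ubiquitous Sen. It had 11.1 and 11.3 CPM in Sen, against 5.605, 6.59 and 5.93 CPM in WT, with 6.47, 7.88 and 6.72 CPM in OKSM and 7.79, 10.8 and 9.09 CPM in OKSM-Sen. The Sen libraries were above all others of the model. For Sen the log2 fold change was 0.87 (SE 0.16, edgeR adjusted p = 0.0392), and it was not called without Sen replicate 2 or 3 or WT replicate 1. CR45517 had 3.01 and 6.63 CPM in Sen, 2.94, 4.96 and 4.35 CPM in OKSM and 3.21, 3.60 and 3.91 CPM in OKSM-Sen, against 1.87, 1.32 and 1.70 CPM in WT. All construct libraries were above WT, and only Sen was called (1.54, SE 0.34, edgeR adjusted p = 0.0747), a call lost in 11 of 16 alternatives, with a value of 0.88 without Sen replicate 3. The choice of genes favored a rise of CR45517 here too.

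CR43496 was called over the 4 conditions (edgeR adjusted p = 0.0223). It had 1.88, 2.58 and 1.53 CPM in OKSM, 5.603 and 5.91 CPM in Sen and 6.36, 5.13 and 6.69 CPM in OKSM-Sen, against 3.48, 2.97 and 4.23 CPM in WT. OKSM lay below WT, and Sen and OKSM-Sen lay above it. CR42861, 101 bases from Pdcd4, the gene of a translation inhibitor, had 4.59, 4.52 and 4.64 CPM in OKSM, 4.90 and 4.44 CPM in Sen and 2.71, 1.53 and 2.07 CPM in OKSM-Sen, against 3.40, 4.54 and 4.16 CPM in WT (adjusted p = 0.0838 over the 4 conditions). Only OKSM-Sen was below the others. Neither gene was called for a construct against WT.

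In total, ubiquitous OKSM had 1 called gene of the 31, which was lower (1.09% of all tested genes, 0.55% higher and 0.54% lower). Ubiquitous Sen had 2, both higher (2.48% of all tested genes, 1.28% higher and 1.2% lower). Ubiquitous OKSM-Sen had 1 higher and 2 lower (1.16% of all tested genes, 0.602% higher and 0.56% lower). Median log2 fold changes were -0.06, 0.03 and 0.04 over the 31 genes for OKSM, Sen and OKSM-Sen. DESeq2 called 7, 5 and 10 of the 31 in these comparisons, where it called 4.43%, 6.57% and 3.54% of all genes. Libraries that did not overlap WT were found for 10 genes with OKSM, 12 with Sen and 14 with OKSM-Sen in this model, beside 14.5%, 28% and 13.8% of all tested genes. ISC libraries were apart from WT for 16, 14 and 14 genes, beside 40.3%, 45.4% and 39.9%.

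Whether OKSM and Sen together gave more or less than the sum of their separate effects was tested as an interaction, in which the log2 fold changes of OKSM and of Sen are subtracted from that of the combination. Flies of the combination carried both UAS transgenes, so their number changes with the combination and cannot be told apart from it. The separate effects share the WT libraries, so an unusual WT level moves both of them and, the other way, the interaction. In the ISC model 9 of the 31 genes were called, 5 positive and 4 negative (21.9% of all tested genes, 10.6% positive and 11.4% negative). CR44138 had an interaction of -2.71 (SE 0.51, edgeR adjusted p = 0.0112), where the rise with both was smaller than the sum of the rises with each. CR45184 (0.82, SE 0.22, adjusted p = 0.0366) and CR31781 (1.33, adjusted p = 0.0722) fell with both by less than the sum. CR45517 (-1.07, adjusted p = 0.0553), CR44310 (2.03, adjusted p = 0.0335), CR42839 (0.99, adjusted p = 0.0524) and CR43459 (1.29, adjusted p = 0.0787) also showed a combined change smaller than the sum. CR34335 (-3.12, SE 1.12, adjusted p = 0.0911) was the case in which the fall appeared with both and the values for each alone were not called. The choice of genes favored that fall, as given above. The interaction of CR34335 was lost in 12 of 17 alternatives and was -6.71 without OKSM-Sen replicate 2. CR42861 had -0.77 (adjusted p = 0.0588). Without the exchanged pair 2 of the 31 genes were called, CR44138 (-3.06, adjusted p = 0.0407) and CR31781 (1.604, adjusted p = 0.0748), against 7.54% of all genes, and CR45184 (0.71, adjusted p = 0.14) was not. Without OKSM replicate 2, OKSM-Sen replicate 2 or 3, Sen replicate 1 or WT replicate 2, the count was 5. Of 17 alternatives, 10 lost the call of CR31781, 9 that of CR43459, 5 those of CR45517 and CR42839 each, 4 that of CR42861, and 1 those of CR44310 and CR45184 each, whereas that of CR44138 was called in all 17. In the ubiquitous model no interaction passed in edgeR (1.06% of all tested genes, 0.488% positive and 0.571% negative), where 8 of the 31 had an unadjusted p under 0.05 and DESeq2 called 3 (5.39% of all genes). CR34335 had -2.25 there (edgeR adjusted p = 0.106).

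Responses were compared between models in a fit of all 23 libraries, as the ISC log2 fold change less the ubiquitous one. For OKSM 2 genes were called, both positive (4.12% of all tested genes, 1.73% positive and 2.4% negative). CR44138 had a difference of 2.32 (SE 0.50, edgeR adjusted p = 0.0323), which was lost without ISC WT replicate 1 or ubiquitous OKSM replicate 1, and CR43496 had 1.16 (adjusted p = 0.054), with levels below WT in ubiquitous OKSM, and was lost without ISC OKSM replicate 3, ISC WT replicate 1 or 2 or ubiquitous OKSM replicate 1.

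For Sen 7 genes were called, 3 positive and 4 negative (27.3% of all tested genes, 14.2% positive and 13.1% negative). CR44138 differed by 3.35 (SE 0.57, edgeR adjusted p = 0.00111), with a rise in ISC Sen and values below WT in ubiquitous Sen. CR32368 differed by 2.29 (SE 0.55, adjusted p = 0.0089), CR45184 by -1.14 (adjusted p = 0.0101), CR43459 by -1.66 (adjusted p = 0.0282) and CR31781 by -1.43 (adjusted p = 0.0974). CR44417 (-0.57, adjusted p = 0.081) and CR45102 (0.31, adjusted p = 0.0999) differed by less. The difference of CR43459 was lost without ubiquitous Sen replicate 3, and those of CR31781, CR44417 and CR45102 were lost in 19, 12 and 18 of 28 alternatives. Without ubiquitous Sen replicate 2, that of CR31781 was -0.77. Without the exchanged pair 4 genes were called, against 19% of all genes.

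For OKSM-Sen 1 gene was called, CR32368, with 2.29 (SE 0.51, edgeR adjusted p = 0.0668; 1.46% of all tested genes, 0.625% positive and 0.833% negative), and none without the exchanged pair, where 0.239% of all genes were called. The call was also lost without ISC OKSM-Sen replicate 1 or 3, ISC WT replicate 1 or 2, ubiquitous OKSM-Sen replicate 1 or 2, or ubiquitous WT replicate 1 or 2, in 9 of 28 alternatives, with values of 2.09 to 2.58. DESeq2 called 4 (6.13% of all genes). CR44138 had 1.84 (adjusted p = 0.108), not called.

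The coding genes beside the lncRNA genes were followed in the same fits. In the ISC model 9 of the genes called with OKSM had a tested coding gene, and 3 of these coding genes were called, each in the direction of its lncRNA. They were Sf3b3 (-0.63), FucTC (0.41) and Ctr1B (1.39). With Sen it was 4 of 13, with Sf3b3 (-0.49), srp (-1.09) and Sin3A (-0.31) in the same direction and CG9813 (-0.59) in the opposite one. With OKSM-Sen it was 2 of 7, Sf3b3 (-0.72) and FucTC (0.73). These shares can be set beside the 32.3%, 36.5% and 29% of all genes called in the same comparisons. Sf3b3 and Ctr1B overlap exons of their lncRNA gene on the same strand, and FucTC does so antisense. Reads of these pairs may be divided between the genes, for FucTC if the counting ignored the strand. Under the ubiquitous driver none of the coding genes beside the 1, 2 and 3 called lncRNA genes was called.

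**Figure D5:**
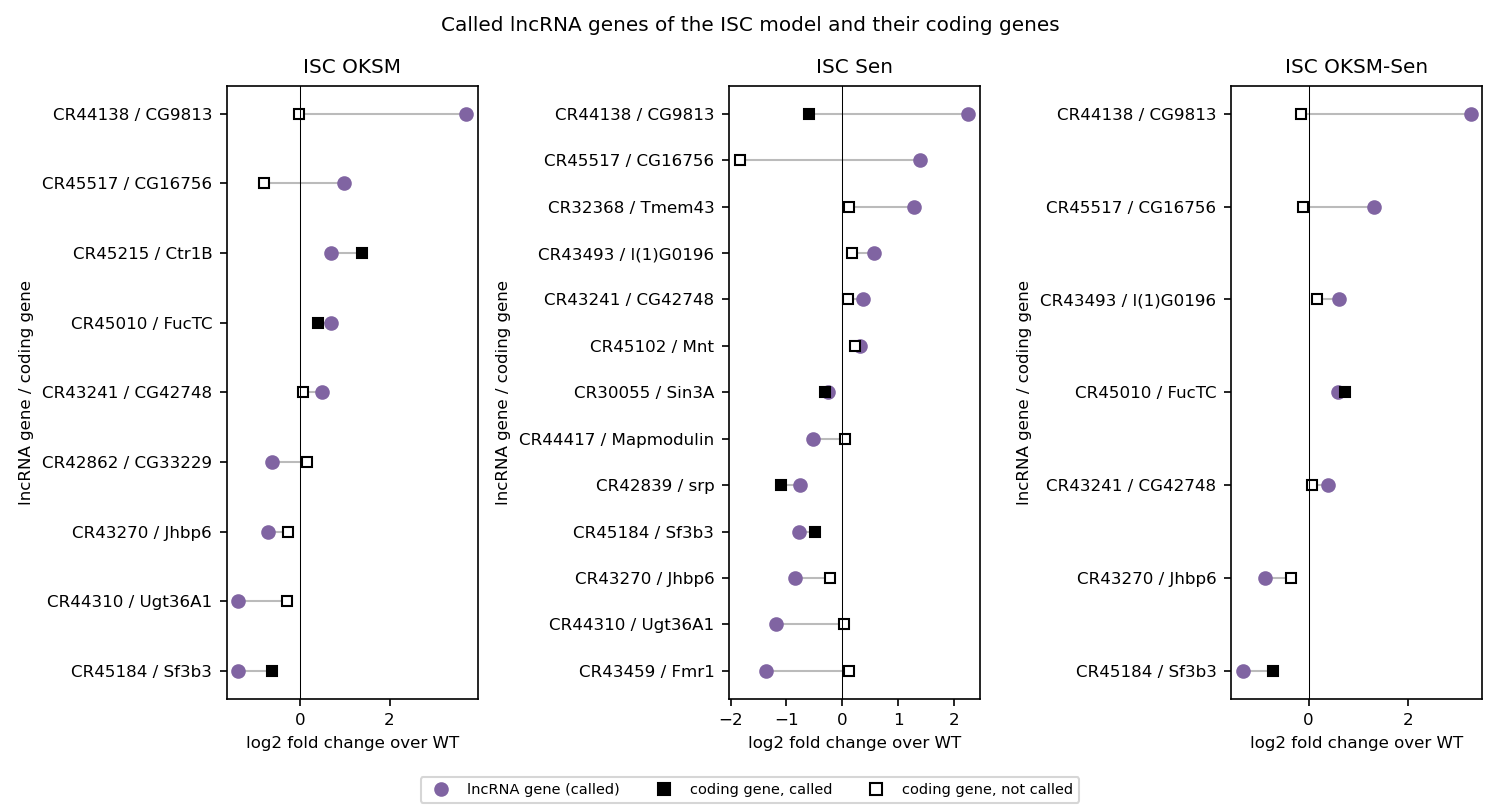
Log2 fold change over WT of the called lncRNA genes of the ISC model (circles) and of the coding gene that overlaps or lies nearest (squares, filled where called), for OKSM, Sen and OKSM-Sen. CR44138 rose by 3.71, 2.26 and 3.26, where CG9813 had -0.01, -0.59 and -0.16.

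No comparison called 11 of the 31 genes: CR32218, CR42491, CR42549, CR44986, CR45018, CR45197, CR45668, CR46064, CR46268, CRG and Hsromega. Hsromega varied widely within groups, at 151 ± 52.5 CPM in OKSM, 142 ± 37.7 CPM in Sen and 173 ± 19.8 CPM in OKSM-Sen, against 123 ± 29.1 CPM in WT of the ISC model (SD, n = 3 each). Its ubiquitous levels were 151 ± 68.0 CPM in OKSM, 209 ± 100.4 CPM in Sen (n = 2) and 201 ± 100.3 CPM in OKSM-Sen, against 158 ± 32.1 CPM in WT, so that a change below that spread was not detectable. Of 10 genes for proteins known to bind or act with the Hsromega RNA, 2 fell with ISC OKSM, 1 rose and 1 fell with ISC Sen, 1 rose with ISC OKSM-Sen and none was called in the ubiquitous model. Of all tested genes, 32.3%, 36.5% and 29% were called in these ISC comparisons. CRG, a lncRNA that shares exons with CASK and is known in the fly to raise its expression and affect movement, had 4.22 ± 2.29 CPM in OKSM, 4.73 ± 0.472 CPM in Sen and 3.502 ± 0.265 CPM in OKSM-Sen, against 3.84 ± 1.17 CPM in WT of the ISC model. CR45197, which shares exons with sgg, the fly GSK3 gene, had no read in ISC Sen replicate 2 and 1.44 to 10.4 CPM elsewhere. CR45668 and CR44986, far apart between the models, were not called for any construct within a model. Of 6 genes for the proteins that work with the roX RNAs, 1 fell, in ISC Sen, where 18.3% of all tested genes fell, and none was called in the other constructs of either model.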

How the data were processed

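Per the labels and the study's methods, reads of midgut RNA were aligned with STAR (version 2.7.1a) and the authors deposited expected counts and TPM per gene from RSEM (version 1.3.1). The submitters' processing notes name dm6. The sources used here do not give strand use. Expected counts, which divide reads that match several genes, were rounded to whole numbers. Removed were 390 rRNA, snoRNA and snRNA genes, and any gene whose mean was below 10. Each model was fitted apart with edgeR (version 4.0.16, TMM, glmQLFit robust, glmQLFTest), and all 23 libraries together for the difference between models. P-values were adjusted over all tested genes after Benjamini and Hochberg (FDR of 10%). DESeq2 (version 1.42.0), its size factors, no filter, a replicate block, a construct with WT only, each library left out, and, chosen after seeing the data, the exchanged pair left out were alternatives. Fits were tested on simulated data. Coordinates are those of BDGP6.54. The genes and lists were chosen with earlier results of these data known. Genes were named by role, level, variation, size of change and place beside the mean of 100. The deposited TPM values served only for levels between genes. No sequence was used.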

Additional observations from a re-analysis of the deposited data

Results flagged for a closer look

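In the ISC model, the combined effect of OKSM and Sen differed from the sum of the separate effects (log2 scale, edgeR) for CR44138 (-2.71), CR44310 (2.03), CR45184 (0.82), CR42839 (0.99), CR45517 (-1.07), CR42861 (-0.77), CR31781 (1.33), CR43459 (1.29) and CR34335 (-3.12). The response to OKSM, ISC minus ubiquitous model, differed for CR44138 (2.32) and CR43496 (1.16). The response to Sen differed for CR44138 (3.35), CR32368 (2.29), CR45184 (-1.14), CR43459 (-1.66), CR44417 (-0.57), CR31781 (-1.43) and CR45102 (0.31), and the response to OKSM-Sen for CR32368 (2.29). Each difference was tested itself. Driver, depth and library set change together between the models and cannot be told apart.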

How the results depend on the processing

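Of 59 called values of single genes, 27 were called under every alternative and 0 reversed. Counts of called lncRNA genes moved by over 1.5 times in these cases. DESeq2 called 7 instead of 1 in ubiquitous OKSM, 5 instead of 2 in Sen, 10 instead of 3 in OKSM-Sen, 3 instead of 0 for the interaction and 4 instead of 1 for the model difference of OKSM-Sen. With a construct and WT alone, ubiquitous OKSM gave 0 and Sen 0. Without a filter, the ubiquitous interaction gave 1 and the model difference of Sen 4. Without the exchanged pair, the ISC model gave 8 instead of 16 over the 4 conditions and 2 instead of 9 for the interaction, and the model differences gave 4 instead of 7 for Sen and 0 for OKSM-Sen. Leaving out each library in turn gave, in the ISC model, 8 to 16 over the 4 conditions, 8 to 12 for OKSM, 10 to 16 for Sen, 6 to 13 for OKSM-Sen (6 without OKSM-Sen replicate 1) and 5 to 10 for the interaction. In the ubiquitous model it gave 4 to 7 over the 4 conditions, 0 to 2 for OKSM, 0 to 2 for Sen, 2 to 4 for OKSM-Sen and 0 to 1 for the interaction, and for the model differences 0 to 3 for OKSM, 4 to 6 for Sen and 0 to 3 for OKSM-Sen. The causes were not tested. Whether replicate numbers pair the samples was not settled. Deviations from group means of same-numbered samples correlated at -0.328 to 0.258 over 18 pairs in the ISC model. In the ubiquitous model they correlated at -0.368 to 0.474 over 15 pairs, 7 of them above 0.1. Samples with unlike numbers were not compared, so these values cannot show whether pairing is absent. With the replicate block, ubiquitous OKSM gave 0, Sen 1 and the model difference of OKSM-Sen 2, and the other counts stayed within 1.5 times. ISC libraries held fewer counts than ubiquitous ones, so that a low count there rests on fewer reads.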
